A study of Mus musculus with 8 samples.

Results

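Mouse myeloid cells with and without deletion of a Meis1 transgene were compared. The comparison covered a set of 10 genes that make, break down or sense prostaglandins and leukotrienes. They are Hpgd, Hpgds, Ptgs1, Ptgs2, Ptges, Alox5, Alox5ap, Lta4h, Ltc4s and Ltb4r1. They were matched by exact symbol to the platform's probe-to-gene table, which named 14 probe sets for 9 of the 10 genes, out of 45037 probe sets that are not controls. Ptgs1 had no probe set with that symbol and was not analysed here. The other 9 genes each had a probe set that passed the filter on low values, which kept 11836 genes in all. The members were proposed with results of the same contrast in view, so their differences are a description and carry no test.

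The cells were bone marrow cells of C57BL/6 mice with the Rosa26-Cre-ERT2 knock-in, transformed by retroviral Hoxa9 and a floxed Meis1 cDNA and labelled as immortalized myeloid cells. A group of 4 arrays, called Meis1 deleted, came from cells given 2 µM 4-hydroxytamoxifen, which switches on Cre and removes the Meis1 cDNA. The other 4 arrays, called Hoxa9 and Meis1, came from cells without the drug. Both groups carry Cre and Hoxa9 and grew with 10% serum and 5 ng/ml IL-3, and RNA came from whole cultures, so fewer expressing cells and less RNA per cell cannot be told apart. The drug and Cre activity belong to the deleted group alone and cannot be told apart from the loss of Meis1. Separate cultures are not named for the 4 samples of either group, so each p-value reflects the spread among these samples alone, possibly technical; whether the line is a clone or a pool is not stated either.

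Prostaglandins and leukotrienes, together called eicosanoids, are short-lived lipid signals made from arachidonic acid, a fatty acid cut from membrane lipids by phospholipases. Cyclooxygenases (Ptgs1 and Ptgs2) turn it into a precursor that terminal synthases such as Ptges and Hpgds convert to prostaglandin E2 and D2, and Hpgd begins the inactivation of prostaglandins. In the other branch, Alox5 with its membrane partner Alox5ap makes leukotriene A4, from which Lta4h makes leukotriene B4, a neutrophil attractant read by Ltb4r1, and Ltc4s makes leukotriene C4. Neutrophils, macrophages and mast cells are major sources of leukotrienes.

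The 8 arrays hold log2 expression values whose medians lay between 4.69 and 4.74. The probe set kept for Meis1 averaged 5.02 ± 0.07 (SD, n = 4) on the Meis1 deleted arrays and 5.00 ± 0.05 on the Hoxa9 and Meis1 arrays. It thus did not follow the deletion, and the labels do not say whether it covers the transgene. The spiked bioB control, which is added before hybridisation and carries no cell RNA, split the arrays into a set of 5 (3 deleted and 2 control arrays, bioB 3.65 to 3.95) and a set of 3 (1 deleted and 2 control arrays, 6.02 to 6.25). Meis1 deleted replicate 1 stood apart from the other 3 deleted arrays for several genes below.

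The promoter sequences of the 3 genes with the largest differences are shown first, as context for the levels that follow. Each line is the 250 bases just before the start of the gene in RefSeq's table on build GRCm38.p6, which held 9 of the 10 genes. Hpgd is at chr8:56294302-56294551 on the plus strand, Hpgds at chr6:65144731-65144980 on the minus strand and Ptgs2 at chr1:150099781-150100030 on the plus strand. Capitals mark matches to any of 10 short motifs searched on both strands.
Hpgd: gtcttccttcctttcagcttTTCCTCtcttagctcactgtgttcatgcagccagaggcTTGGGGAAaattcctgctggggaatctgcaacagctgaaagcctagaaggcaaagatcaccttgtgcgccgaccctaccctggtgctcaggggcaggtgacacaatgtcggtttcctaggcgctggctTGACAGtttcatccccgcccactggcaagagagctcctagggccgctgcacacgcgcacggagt
Hpgds: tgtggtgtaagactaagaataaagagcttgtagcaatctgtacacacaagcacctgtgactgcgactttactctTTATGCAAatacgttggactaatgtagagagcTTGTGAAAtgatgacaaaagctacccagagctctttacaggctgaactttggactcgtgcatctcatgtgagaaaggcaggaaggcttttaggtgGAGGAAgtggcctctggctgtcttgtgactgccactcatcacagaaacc
Ptgs2: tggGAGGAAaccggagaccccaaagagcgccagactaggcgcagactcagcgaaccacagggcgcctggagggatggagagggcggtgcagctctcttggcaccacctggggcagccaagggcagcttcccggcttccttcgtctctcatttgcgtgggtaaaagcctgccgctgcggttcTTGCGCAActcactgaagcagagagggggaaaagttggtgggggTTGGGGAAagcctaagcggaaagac

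The MEIS motif TGACAG was found in the Hpgd stretch, beginning 64 bases before the start, and not in the Hpgds or Ptgs2 stretch; 15.9% of 32851 promoter stretches of the same length hold it. The PU.1 motif GAGGAA was found in all of the 3 stretches, beginning 49 bases before the start in Hpgds, against 23.3% of promoter stretches. It is not particular to these 3 genes: the stretches of Ptgs1, Ptges, Alox5, Lta4h and Ltb4r1 held it too, and that of Ltc4s did not. The C/EBP motif TTNNGNAA was found 1 time in Hpgd, 2 times in Hpgds and 2 times in Ptgs2, against 36.8% of stretches with at least 1 match. Ptges, whose groups overlapped, also held a C/EBP match. No match in these 3 windows was found for TGATTTAT (HOX with PBX, 0.837% of stretches), TGACGTCA (CRE, 1.55%), TGANTCA (AP-1, 6.75%), CACGTG (E-box, 6.02%), the box TATAAA (12.4%), CCAAT (33.8%) or the ISRE motif (2.98%). A match is a run of letters and not a site shown to be bound; no binding was measured here.

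The largest differences lay in prostaglandin breakdown and in the synthesis of prostaglandin D2, and they ran in opposite directions. Hpgd was 3.31-fold lower and Hpgds 2.91-fold higher in Meis1 deleted cells, while Ptgs2 was 1.55-fold lower. The other 6 genes, among them all measured members of the leukotriene branch, differed by less than 0.15 on the log2 scale. Leukotriene genes outside this set, such as Cysltr1, Cyp4f18 and Mgst3, differed by more and are described below. The median difference over the 9 genes was -0.03, beside 0.00 over all genes tested, to 2 decimals. Of the 9, 2 differed by at least 1 on the log2 scale, as did 3.19% of all genes: Hpgds among the 2.51% that were higher and Hpgd among the 0.676% that were lower. In 2 of the 9 every deleted array lay above every control array (Hpgds and Alox5ap), as in 19.7% of all genes, and in 3 every deleted array lay below (Hpgd, Ptgs2 and Lta4h), as in 18.9% of all genes. Since this contrast was known when the genes were chosen, nothing is read from these shares.

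**Figure D1:**
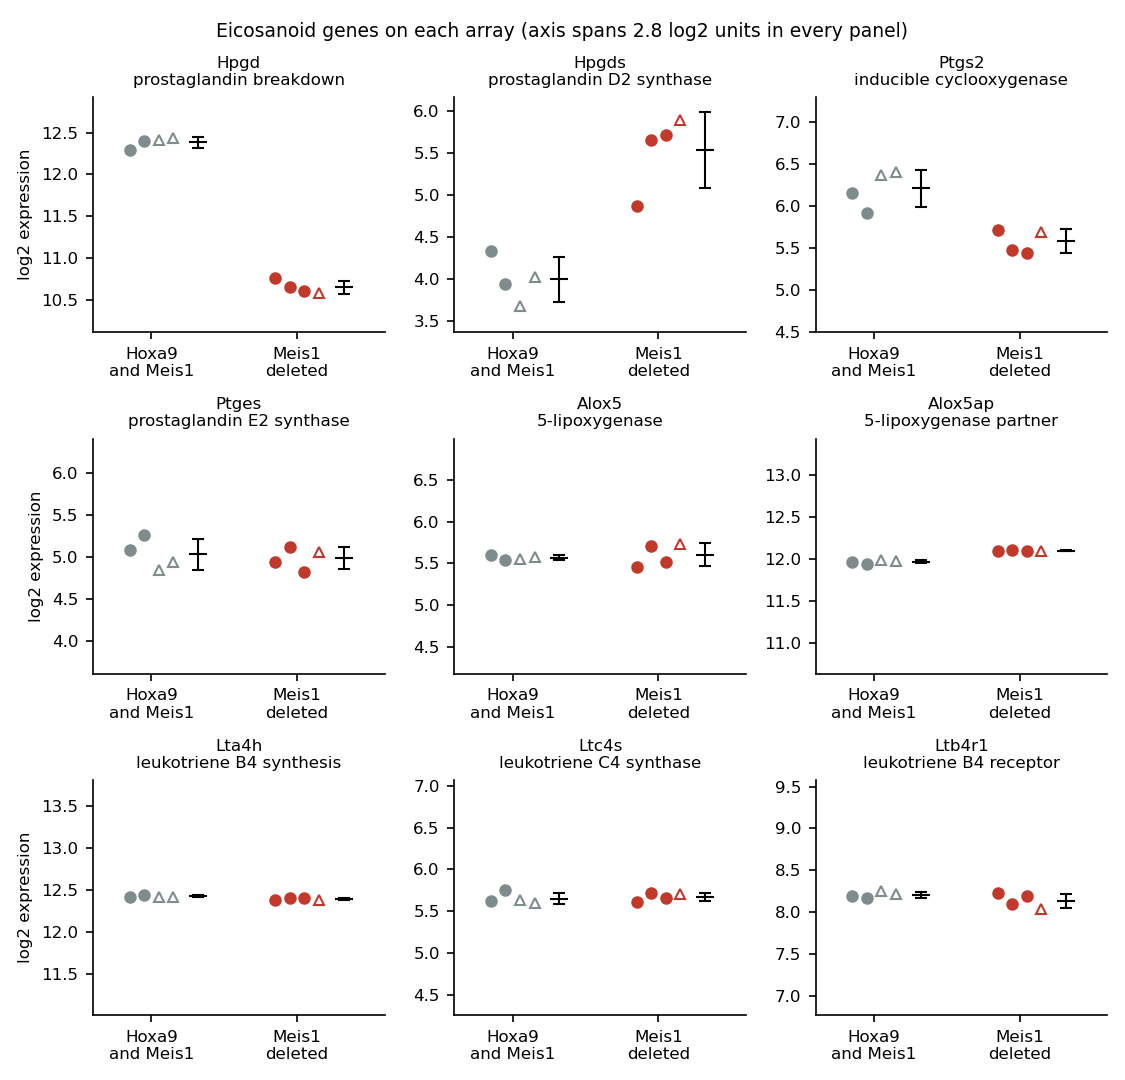
Log2 expression of the 9 measured eicosanoid genes on each array, with Hoxa9 and Meis1 arrays in grey and Meis1 deleted arrays in red; filled circles are arrays of the bioB set of 5, open triangles those of the set of 3, and black bars are the mean and SD of 4 arrays. Hpgd sits near 12.4 and 10.7, Hpgds shows 1 deleted array (4.87) below the other 3, and the leukotriene genes differ by at most 0.13 between group means.

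Hpgd encodes the dehydrogenase that oxidises and thereby inactivates prostaglandin E2 and related prostaglandins. Its level was 12.29, 12.40, 12.41 and 12.43 on the 4 Hoxa9 and Meis1 arrays and 10.77, 10.65, 10.61 and 10.59 on the 4 Meis1 deleted arrays. The groups were 12.38 ± 0.06 and 10.66 ± 0.08 (SD, n = 4 each), with no overlap and a log2 difference of -1.73 ± 0.06 (SE of limma's fit). Counting Hpgd itself, 12 of the 11836 genes had a difference at least as low. The difference was -1.67 in the bioB set of 5 arrays and -1.83 in the set of 3, and between -1.77 and -1.71 when any 1 array was left out.

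A further probe set for Hpgd gave the same direction at a smaller size. It read 7.12, 7.34, 7.16 and 6.83 on the Hoxa9 and Meis1 arrays and 6.31, 6.32, 6.53 and 5.92 on the Meis1 deleted arrays, again without overlap. Its log2 difference was -0.84 ± 0.14 (SE), and the mean of both probe sets gave -1.29. Both were designed from the same sequence record, and the brighter one has the name suffix that marks probes shared by several transcripts.

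Hpgds encodes haematopoietic prostaglandin D synthase, a glutathione-dependent enzyme of mast cells, megakaryocytes and some macrophages. Its level was 4.34, 3.94, 3.68 and 4.03 on the Hoxa9 and Meis1 arrays, or 4.00 ± 0.27 (SD, n = 4), which lies under the filter threshold of 4.29. On the Meis1 deleted arrays it was 4.87, 5.66, 5.72 and 5.90, or 5.54 ± 0.46. The groups did not overlap, and the lowest deleted array, replicate 1, was closest to the controls. The log2 difference was 1.54 ± 0.22 (SE), and 1.76 without Meis1 deleted replicate 1.

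Because the control level of Hpgds is near the floor of the table, the gene passed the filter through the deleted arrays, and the size of its difference is uncertain. With 64 added to the linear values before the logarithm the difference was 0.48. It was 1.28 in the bioB set of 5 arrays and 2.05 in the set of 3, where 1 deleted array was compared with 2. Only 1 probe set was named for Hpgds.

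Ptgs2 encodes the inducible cyclooxygenase, the committed step of prostaglandin synthesis in activated cells. It read 6.16, 5.92, 6.37 and 6.40 on the Hoxa9 and Meis1 arrays and 5.72, 5.48, 5.44 and 5.69 on the Meis1 deleted arrays, or 6.21 ± 0.22 and 5.58 ± 0.14 (SD, n = 4 each). The groups did not overlap, with control replicate 2 and deleted replicate 1 closest, and the log2 difference was -0.63 ± 0.11 (SE). It was -0.49 and -0.70 within the bioB sets of 5 and 3, and -0.31 with an offset of 64. A further probe set for Ptgs2 lay under the filter at 3.56 ± 0.03 and 3.44 ± 0.10, where the groups overlapped and the difference was -0.13 ± 0.06 in a fit with no filter.

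Ptges encodes the microsomal synthase that makes prostaglandin E2 downstream of Ptgs2, and it did not separate the groups. The probe set with the highest mean read 5.08, 5.26, 4.84 and 4.94 on the Hoxa9 and Meis1 arrays and 4.94, 5.12, 4.82 and 5.06 on the Meis1 deleted arrays, a difference of -0.04 ± 0.10 (SE) on the log2 scale. The other two probe sets gave -0.03 ± 0.08 and -0.16 ± 0.09, also with overlap. The difference was -0.21 in the bioB set of 5 and 0.17 in the set of 3, so its sign is not settled.

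**Figure D2:**
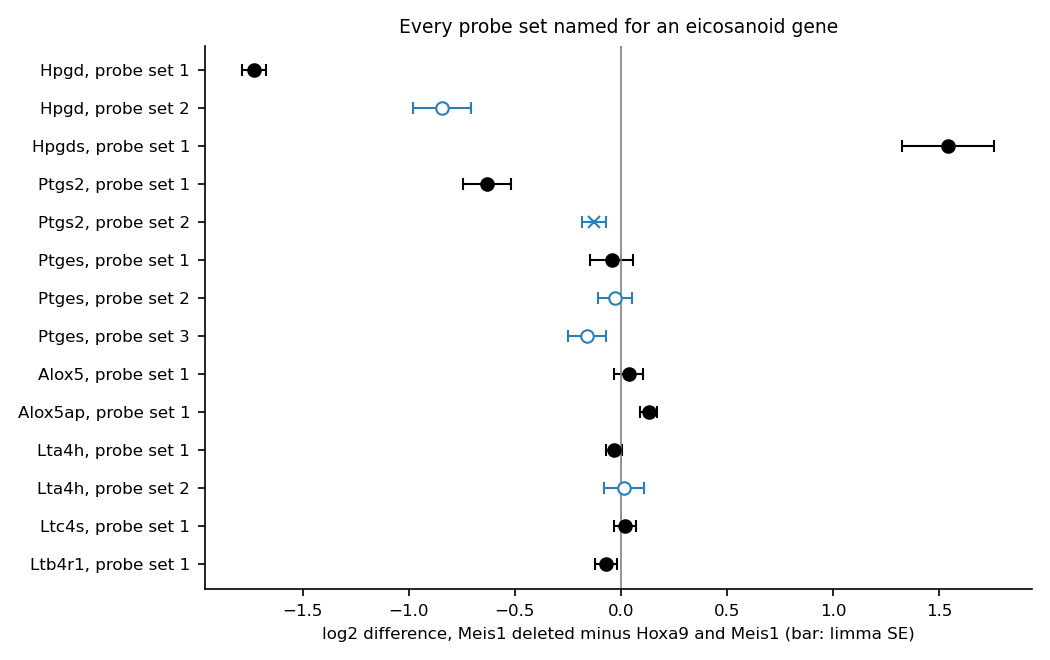
Log2 difference (Meis1 deleted minus Hoxa9 and Meis1) for all 14 probe sets named for the 9 genes, with limma's standard error. Black points stand for the gene, open blue points are its further probe sets and the cross is under the filter; both Hpgd probe sets lie left of 0 (-1.73 and -0.84), Hpgds lies at 1.54, and the points from Ptges downward lie within 0.16 of 0.

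In the leukotriene branch, the first enzyme and its partner differed little between groups. Alox5ap, also called FLAP, presents arachidonic acid to 5-lipoxygenase at the nuclear membrane. It read 11.97, 11.94, 11.99 and 11.98 on the Hoxa9 and Meis1 arrays and 12.09, 12.11, 12.10 and 12.10 on the Meis1 deleted arrays. All 4 deleted arrays lay above all 4 controls, yet the difference was small, 0.13 ± 0.04 (SE) on the log2 scale or 1.09-fold, and 0.10 after quantile normalization. Alox5, the 5-lipoxygenase itself, read between 5.54 and 5.60 on the control arrays and between 5.46 and 5.74 on the deleted arrays. Its groups overlapped, with a difference of 0.04 ± 0.07 (-0.01 in the bioB set of 5 and 0.17 in the set of 3).

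The enzymes that finish leukotriene B4 and leukotriene C4 differed little between groups. Lta4h, the hydrolase that forms leukotriene B4, read between 12.41 and 12.44 on the control arrays and between 12.38 and 12.40 on the deleted arrays. The ranges did not overlap, but they were 0.03 apart in the mean (-0.03 ± 0.04 SE), and a further Lta4h probe set gave 0.01 ± 0.10 with overlap. Ltc4s, the synthase for leukotriene C4, read between 5.60 and 5.75 and between 5.61 and 5.72, a difference of 0.02 ± 0.05. Within the bioB sets of 5 and 3 the Ltc4s difference was -0.025 and 0.0845.

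Ltb4r1, the high-affinity receptor through which neutrophils follow leukotriene B4, read 8.19, 8.17, 8.25 and 8.22 on the Hoxa9 and Meis1 arrays. On the Meis1 deleted arrays it read 8.22, 8.10, 8.19 and 8.04. The groups overlapped, with a log2 difference of -0.07 ± 0.05 (SE). It was -0.01 in the bioB set of 5 and -0.20 in the set of 3.

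The patterns most like those of Hpgd and Hpgds were found by the root mean square difference of mean-centred log2 values over the 8 arrays. For Hpgd they were Selenbp1 (0.08, from 10.98 to 9.38 in the group means), Ambp (0.08, from 9.06 to 7.41) and Per2 (0.09, from 5.97 to 4.21). Selenbp1 has a near-identical copy, Selenbp2, whose transcripts its probes may also capture. For Hpgds they were Trim34a (0.22, from 5.37 to 6.88), H2-T24 (0.25, from 4.04 to 5.60) and Trex1 (0.27, from 7.06 to 8.46).

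The rest of the pathway was described with a list of 67 genes sorted by role, of which 44 were tested, 13 lay under the filter and 10 had no probe set of that symbol. In limma's test over all genes, with Benjamini-Hochberg adjustment and a threshold of 0.05, 12 rose and 7 fell, or 43.2% of the 44, beside 35.5% of all 11836 genes (18.1% higher and 17.5% lower). The median log2 fold change of the 44 was 0.03 and the median size 0.14, beside 0.13 for all genes.  The largest changes were those of Ptger2 and Fpr2. Of the 44, 4 rose at least 2-fold, beside 2.51% of all genes, and 0 fell as much, beside 0.676% of all genes. In the bioB set of 5 arrays alone 7 passed as higher and 6 as lower, and in the set of 3 alone 9 and 5.

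**Figure D3:**
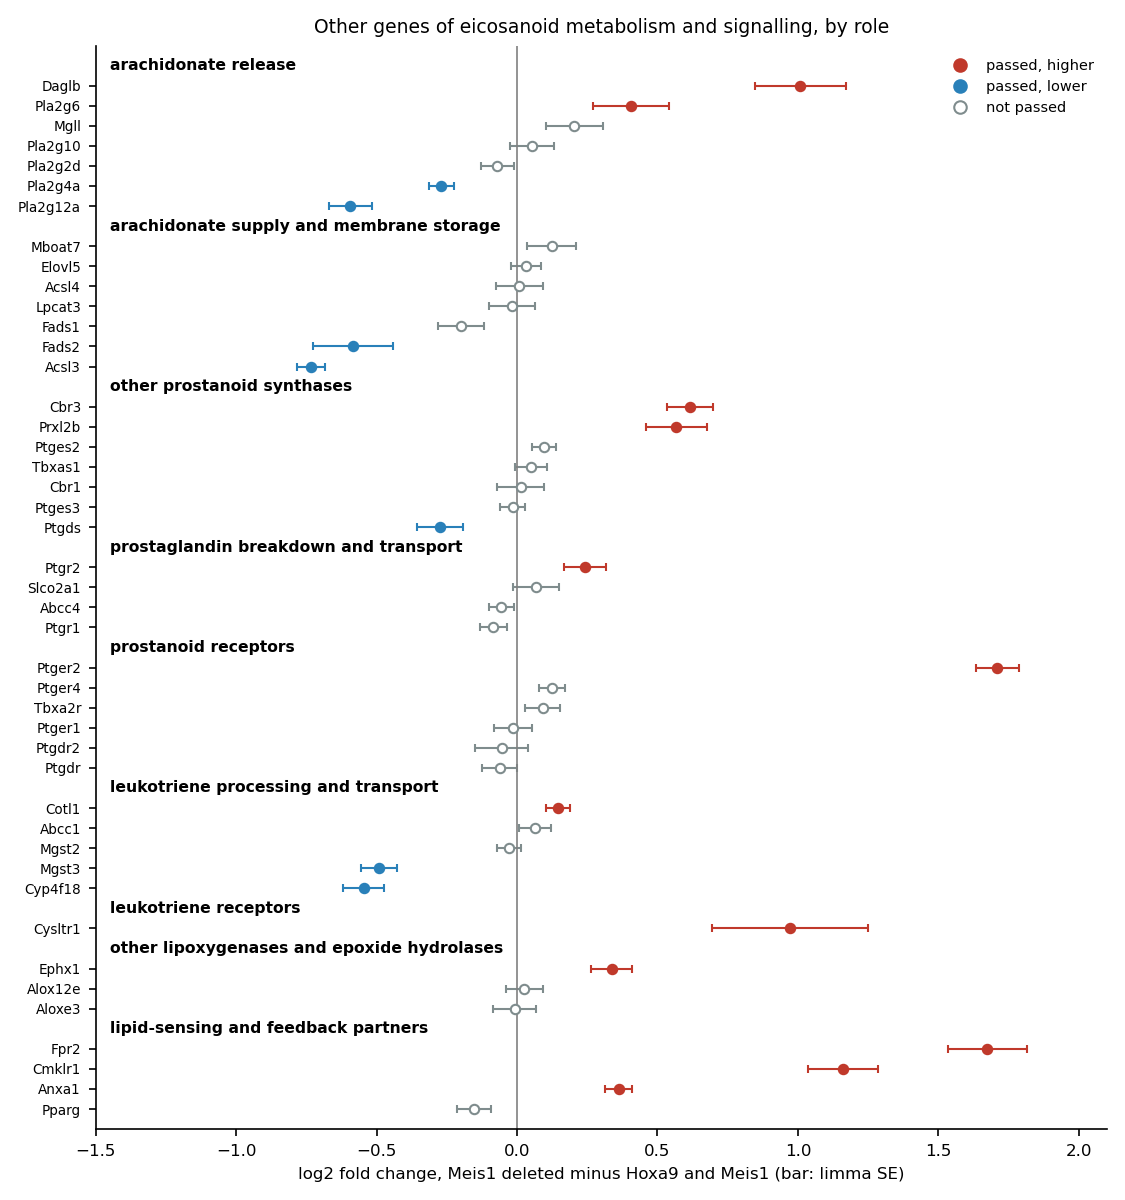
Log2 fold change with limma's standard error for the 44 tested genes of the wider pathway, grouped by role; red points passed the test as higher in Meis1 deleted cells (12 genes), blue as lower (7 genes), and open grey points did not pass (25 genes). Ptger2 (1.71), Fpr2 (1.67), Cmklr1 (1.16) and Daglb (1.01) lie farthest to the right and Acsl3 (-0.73) farthest to the left.

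Among prostanoid receptors 1 of 6 tested genes passed, beside 35.5% of all genes. Ptger2, the prostaglandin E2 receptor that raises cyclic AMP, read 5.11, 4.82, 5.14 and 4.92 on the Hoxa9 and Meis1 arrays and 6.80, 6.69, 6.67 and 6.68 on the Meis1 deleted arrays. Every deleted array lay well above the controls, and Ptger2 rose 3.27-fold (log2 fold change 1.71 ± 0.08 SE, limma adjusted p = 2.33e-07). It was 1.75 and 1.65 within the bioB sets of 5 and 3. Ptger4, the related receptor that also signals through cyclic AMP, did not pass (0.12 ± 0.05, limma adjusted p = 0.0642), although its groups did not overlap. The thromboxane receptor Tbxa2r did not pass either (0.09 ± 0.06). The prostaglandin D2 receptors Ptgdr (4.82 and 4.88 in the deleted and control means) and Ptgdr2 (4.52 and 4.58) did not pass.

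Of the leukotriene receptors other than Ltb4r1 only Cysltr1, a receptor for the cysteinyl leukotrienes, was tested. It read 7.76, 7.74, 7.42 and 7.30 on the Hoxa9 and Meis1 arrays and 7.59, 8.89, 8.98 and 8.64 on the Meis1 deleted arrays. Replicate 1 lay among the controls and the other 3 deleted arrays lay above them. Cysltr1 rose by 0.97 ± 0.28 (limma adjusted p = 0.0234), and without Meis1 deleted replicate 1 the value was 1.28 (adjusted p = 5.61e-05). With the mean of the Cysltr1 probe sets the log2 fold change was 1.05 and the call held, as it did with array weights. The call was lost without any 1 of Meis1 deleted replicates 2, 3 and 4 or of Hoxa9 and Meis1 replicates 3 and 4 (limma adjusted p from 0.0578 to 0.0659). It read 0.74 in the bioB set of 5 (adjusted p = 0.315) and 1.28 in the set of 3 (adjusted p = 0.00560).

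Among genes that sense or counter eicosanoid signals 3 of 4 tested genes rose, beside 18.1% of all genes, and so short a list was not tested as a group. Fpr2, a formyl peptide receptor that also binds annexin A1 and lipoxin, read 5.35, 5.33, 5.06 and 5.00 on the control arrays and 7.24, 6.71, 6.88 and 6.60 on the deleted arrays (log2 fold change 1.67 ± 0.14 SE, limma adjusted p = 1.74e-05). Cmklr1, the chemerin receptor, rose from 4.43 ± 0.25 to 5.59 ± 0.15 (SD, n = 4 each; limma adjusted p = 8.75e-05). Anxa1, a glucocorticoid-induced protein that restrains phospholipase A2 activity, rose by 0.36 ± 0.05 (adjusted p = 3.87e-04). Pparg, a nuclear receptor for fatty acid derivatives, did not pass (-0.15 ± 0.06, adjusted p = 0.0766).

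Genes that release arachidonic acid split, with 2 of 7 higher and 2 lower, beside 18.1% and 17.5% of all genes. Pla2g4a, the cytosolic phospholipase that feeds most eicosanoid synthesis, fell from 9.84 ± 0.05 to 9.57 ± 0.04 (log2 fold change -0.27 ± 0.05 SE, limma adjusted p = 0.00145), a call lost in the bioB set of 3 alone (adjusted p = 0.101). The secreted phospholipase Pla2g12a fell by 0.59, from between 9.05 and 9.22 on the control arrays to between 8.37 and 8.68 on the deleted arrays (adjusted p = 3.07e-04). Daglb, a lipase that makes an arachidonate-bearing glycerol lipid, rose by 1.01 ± 0.16, with 6.18, 5.27, 5.54 and 5.69 on the deleted arrays and 4.59 to 4.76 on the controls (adjusted p = 0.00110). In the bioB set of 5 alone the change in Daglb was 1.06, just under the threshold (limma adjusted p = 0.0490). In the set of 3, where 1 deleted array was compared with 2, it was 0.98. The calcium-independent Pla2g6 rose by 0.41 ± 0.14 with an adjusted p of 0.0445, and its groups overlapped. Pla2g6 lost its call without any 1 of Meis1 deleted replicates 1, 2 and 3 or Hoxa9 and Meis1 replicates 2, 3 and 4 (limma adjusted p from 0.0536 to 0.119), in the bioB set of 5 alone (0.24, adjusted p = 0.121) and with the mean of its probe sets (0.19, adjusted p = 0.107). Mgll, which hydrolyses the lipid that Daglb makes, and the secreted Pla2g2d did not pass (0.20 ± 0.10 and -0.07 ± 0.06). Mgll did pass in 3 alternatives: array weights, Meis1 deleted replicate 1 left out, and the mean of its probe sets. That mean gave 0.29 (limma adjusted p = 7.28e-04).

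Genes that supply arachidonic acid or store it in membranes were called in 2 of 7 cases (28.6%), both lower, beside 35.5% of all genes. With so few genes, nothing is read from this share. Acsl3, which activates long-chain fatty acids, fell by 0.73, from a mean of 8.98 ± 0.03 to 8.24 ± 0.08 (SD, n = 4 each) (limma adjusted p = 4.09e-06). The desaturase Fads2 fell by 0.58 (adjusted p = 0.0106). Its level was 8.29 on Meis1 deleted replicate 1 and 7.59 to 7.69 on the other 3 deleted arrays, and its change was -0.75 without replicate 1; the call was lost in the bioB set of 5 alone (adjusted p = 0.148). Acsl4, the enzyme that prefers arachidonic acid, read 9.51 ± 0.18 and 9.50 ± 0.05 (SD, n = 4 each) and did not pass (0.01 ± 0.08, and -0.08 without Meis1 deleted replicate 1). Elovl5, an elongase of polyunsaturated fatty acids, did not pass (0.03 ± 0.05).

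Of 7 other prostanoid synthases 2 rose and 1 fell, beside 18.1% and 17.5% of all genes. Cbr3, a carbonyl reductase related to the prostaglandin E2 reductase Cbr1, rose by 0.62 ± 0.08 (limma adjusted p = 3.27e-04). Prxl2b, which makes prostaglandin F2-type products, rose by 0.57 ± 0.11 (adjusted p = 0.00293), with the call lost in the bioB set of 3 alone (adjusted p = 0.0854). Ptgds, the lipocalin-type prostaglandin D synthase that is a separate gene from Hpgds, fell by 0.27, from between 4.49 and 4.84 to between 4.30 and 4.52, near the filter threshold of 4.29 and with overlapping groups (adjusted p = 0.0284). The Ptgds call was lost in the bioB set of 3 alone (adjusted p = 0.169), with an offset of 64 and without any 1 of Meis1 deleted replicates 3 and 4 or Hoxa9 and Meis1 replicates 1, 2 and 3 (limma adjusted p from 0.0571 to 0.0771). Ptges3, the cytosolic prostaglandin E synthase, read 11.62 ± 0.06 and 11.63 ± 0.01 and the thromboxane synthase Tbxas1 9.01 ± 0.08 and 8.96 ± 0.07. Neither passed; without Meis1 deleted replicate 1 their log2 fold changes were 0.01 and 0.09.

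In prostaglandin breakdown and transport, apart from Hpgd, 1 of 4 tested genes passed, beside 35.5% of all genes. Ptgr2, a reductase that acts after Hpgd, rose by 0.24 ± 0.08 (limma adjusted p = 0.0335). The call was lost with the mean of its probe sets (0.11), in each bioB set alone, and without Meis1 deleted replicate 4 or any 1 of the 4 Hoxa9 and Meis1 arrays (leave-one-out adjusted p from 0.0523 to 0.0817). Ptgr1, a reductase that acts on prostaglandins and on leukotriene B4, did not pass (-0.08 ± 0.05, and -0.05 without Meis1 deleted replicate 1), nor did the prostaglandin exporter Abcc4 (-0.06 ± 0.04).

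Leukotriene processing held 1 rise and 2 falls among 5 tested genes, beside 18.1% and 17.5% of all genes. Cyp4f18, which oxidises and so inactivates leukotriene B4 in mouse neutrophils, fell by 0.55, from 7.85 to 8.03 on the control arrays to between 7.24 and 7.54 on the deleted arrays (limma adjusted p = 3.32e-04). Mgst3, a microsomal glutathione transferase of the same family as Ltc4s, fell by 0.49 (adjusted p = 3.11e-04). Cotl1, an actin-binding protein that also binds 5-lipoxygenase, rose by 0.15 ± 0.04 (adjusted p = 0.0252). The Cotl1 call was lost in the fit blocked by replicate number (adjusted p = 0.0646) and without Meis1 deleted replicate 4 or Hoxa9 and Meis1 replicates 1 or 3 (limma adjusted p from 0.0611 to 0.0659). It was also lost in the bioB sets of 5 and 3 alone (adjusted p = 0.184 and 0.153). Mgst2, which can also make leukotriene C4, and the leukotriene exporter Abcc1 did not pass (-0.03 ± 0.04 and 0.06 ± 0.06).

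Few other lipoxygenases could be tested. Of 8 listed genes 4 lay under the filter, among them Alox15, and 1 had no probe set of its symbol. Alox12e (5.42 ± 0.10 and 5.39 ± 0.09) and Aloxe3 (4.60 ± 0.08 and 4.61 ± 0.14) did not pass. The microsomal epoxide hydrolase Ephx1 rose from 4.23 ± 0.08, under the filter threshold, to 4.56 ± 0.13 (SD, n = 4 each, limma adjusted p = 0.00625). As with Hpgds, it passed the filter through the deleted arrays, so the size of its rise is uncertain and its call carries little weight. The Ephx1 call was lost in the bioB set of 5 alone (adjusted p = 0.116).

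Sizes of changes in genes of low level depended on the offset. With 64 added to the linear values, the log2 fold change was 0.81 for Ptger2, 0.85 for Fpr2, 0.39 for Cmklr1, 0.37 for Daglb, 0.31 for Cbr3, 0.23 for Prxl2b, 0.20 for Pla2g6 and 0.08 for Ephx1, each still passing limma's test. Of the 19 calls, 10 held under each alternative that tested the gene: Acsl3, Anxa1, Cbr3, Cmklr1, Cyp4f18, Daglb, Fpr2, Mgst3, Pla2g12a and Ptger2.

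Markers of cell types that carry these enzymes were read on the same arrays, where 18.1% of all genes passed as higher and 17.5% as lower. Of 8 measured macrophage markers 8 rose, from Adgre1 (0.40 ± 0.06) to Mrc1 (6.43 ± 0.08), and the log2 of their summed level went from between 11.21 and 11.31 to between 12.94 and 12.97. C1qa, among these 8, averaged 3.86 on the control arrays, under the filter threshold of 4.29. C1qa thus passed the filter through the deleted arrays, and the size of its rise is uncertain. Of 9 neutrophil markers 8 rose and Cxcr2 fell by 0.25. Their summed level was 13.65 to 13.72 on the control arrays and 14.49 to 14.52 on the deleted arrays. These lists moved in the same samples as Hpgds, Ptger2, Fpr2 and Hpgd, and their part in those differences was not tested. Among 7 progenitor markers 3 rose and 3 fell, Cd34 the most (from 5.87 ± 0.21 to 4.00 ± 0.08). The deleted mean of Cd34 lay under the filter threshold. Cd34 passed the filter through the control arrays, so the size of its fall is uncertain.

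Mast cell markers, which matter for Hpgds and Ltc4s, were mostly near the floor. Of 10 measured genes 5 lay under the filter, including Cpa3 (3.68 in the deleted mean) and Fcer1a (3.30 and 3.27 in the deleted and control means), 1 rose (Ms4a2, 0.20 ± 0.07), 1 fell (Gata2, -0.19 ± 0.05) and Kit did not pass (7.72 ± 0.27 and 7.80 ± 0.03). The summed level overlapped between groups, at 8.49 to 8.80 on the deleted arrays and 8.61 to 8.65 on the control arrays. All of the 6 measured eosinophil markers lay under the filter, and 0 of 4 tested lymphocyte markers passed. Of the 2 tested basophil markers Mcpt8 fell by 0.74 and Ms4a2, shared with the mast cell list, rose. Il4 and Cd200r3 lay under the filter. The basophil list's summed level was 7.48 to 7.89 on the deleted arrays and 8.03 to 8.17 on the control arrays. In the megakaryocyte and platelet list 4 of 6 tested genes rose, led by Pf4 (3.84 ± 0.06) and Ppbp (3.44 ± 0.09), whereas Gp9 (0.00 ± 0.06) and Itga2b (-0.21 ± 0.09) did not pass and Gp1bb lay under the filter. Vwf, among the 4 that rose, averaged 4.04 on the control arrays, under the filter threshold of 4.29. Vwf thus passed the filter through the deleted arrays, and its call carries little weight. The list's summed level went from between 8.11 and 8.25 to between 10.95 and 11.07, in the same samples as the difference in Hpgds. Its part in that difference was not tested.

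**Figure D4:**
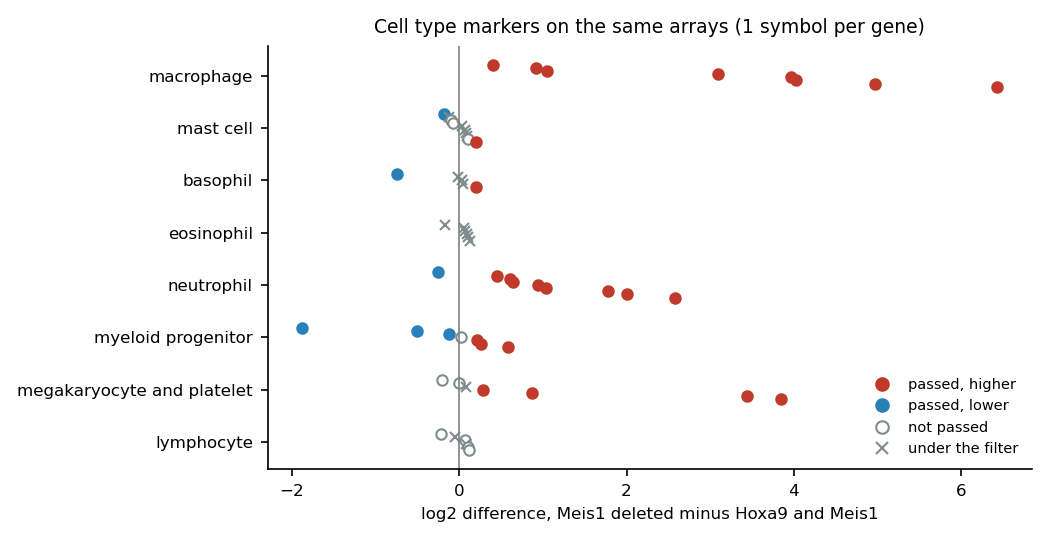
Log2 difference (Meis1 deleted minus Hoxa9 and Meis1) of each measured marker, 1 row per cell type list; the small vertical shift within a row only keeps points apart. Red and blue points passed limma's test as higher and lower, open points did not pass and crosses lay under the filter; macrophage markers reach 6.43 (Mrc1), while the eosinophil row holds crosses alone.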

How the data were processed

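The deposited values are log2 expression per probe set on 1-colour Affymetrix arrays (biotin-labelled cRNA from 100 ng of total RNA, per the labels' protocols), judged to be log2 from their range of 2.65 to 13.2. They were judged from the values to be normalized between arrays, with medians of the 8 deposited columns between 4.69 and 4.74. The submitters' processing notes list MAS5 but not what it was used for, and no label or header names the summarisation method. The arrays have no replicate beyond 4 per group, which limits the precision.

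Values were used as deposited, with no offset. Of 45141 probe sets, 104 controls were left out and the lowest 40% of the rest by mean over 8 arrays (below 4.29), which kept 27022. Limma 3.58.1 (lmFit, eBayes) in R 4.3.3 was fitted on these, and p-values were adjusted (Benjamini-Hochberg, threshold 0.05) over 11836 genes, each represented by the probe set with the highest mean among those with 1 symbol. A positive log2 fold change means higher in Meis1 deleted cells, errors of levels are SDs and errors of differences limma's standard errors. The fit was tested on simulated data. Plots were drawn with Python 3.11.15 and matplotlib 3.10.9.

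The members, lists, motifs and alternatives were chosen with earlier results of these data known. Named were all members, in each role up to 5 passing genes with the largest change and up to 2 of the brightest that did not pass, the 3 genes nearest in pattern to the members with the largest difference in each direction, and defining cell type markers. Ptgdr, Ptgdr2 and Alox15 were named after their values were seen. Alternatives covered the offset (1 and 64), scaling (by quantiles or the 75th percentile), the filter (none or 60%), the mean of probe sets, array weights, trend and robust options of eBayes, blocks for replicate number or bioB set, each bioB set alone, and each array left out.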

Additional observations from a re-analysis of the deposited data

Results flagged for a closer look

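In groups of 4 arrays, a single array was set apart where its gap to the nearest other exceeded Dixon's critical value as a share of the group's range, which chance gives in about 1 of 20 groups. Of 86 groups examined over the members and the other named genes, 11 had such an array, and 5 of these 11 were Meis1 deleted replicate 1. In that array Fads2 read 8.29 (7.59 to 7.69 on the other 3), Acsl4 9.77 (9.38 to 9.44), Ptges3 11.53 (11.64 to 11.65), Tbxas1 8.89 (9.05 to 9.06) and Ptgr1 11.20 (11.33 to 11.35).

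The single member among the 11 was Lta4h, at 12.44 on Hoxa9 and Meis1 replicate 2 beside 12.41 to 12.42. Among the other control arrays, Pla2g2d read 4.62 on replicate 4 (4.49 to 4.51 on the others), Fads2 8.29 on replicate 4 (8.40 to 8.42) and Mgll 6.48 on replicate 1 (6.19 to 6.22). On Meis1 deleted replicate 4, Cbr3 read 6.51 (6.25 to 6.29) and Alox12e 5.27 (5.45 to 5.47).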

How the results depend on the processing

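The 5 member genes without overlap between groups kept the sign of their difference under each of the 21 alternatives that held the gene. Of all measured members, 2 lay without overlap as higher and 3 as lower. The higher count was 1 under the stricter filter of 60%, since Hpgds is then not tested, and 5 in the bioB set of 3 arrays, where 1 deleted array is compared with 2 and Ptges, Alox5 and Ltc4s are added. The lower count was 2 with quantile normalization and with the mean of probe sets, and 4 in the bioB set of 3, where Ltb4r1 is added. Among the other eicosanoid genes the count of rises was 7 in the bioB set of 5 arrays, where fewer arrays were tested. With each array left out in turn the counts were 8 to 12 rises and 6 to 8 falls, and the members 2 higher and 3 lower.

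With the replicate block 11 rose and 7 fell. Same-numbered arrays correlated between -0.13 and 0.29 in their deviations from the group means, and not every array correlated best with its own number. These values do not settle whether the numbers pair the samples. Of the genes named in each role as the brightest that did not pass, Ptger4 passed in 4 alternatives, Mgll in 3 and Pparg in 1. Other listed genes that had not passed were not followed singly, and the causes were not tested. All genes called numbered 4206, and 2114 and 2158 within the bioB sets of 5 and 3. Background signal was not available as a separate measure, so for genes near the floor the arrays limit what can be told.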
